A study of Mus musculus with 16 samples.

Results

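AF epiblast stem cells (EpiSCs) of the mouse line AF32 were compared with naive embryonic stem (ES) cells of the line E14IV-C across all expressed genes. The AF group held 3 libraries, from passages 13, 14 and 15 of AF32 grown in AF medium, and the ES group held 4 libraries, from passages 12, 13, 15 and 20 of E14IV-C grown in 2iL medium. These 7 libraries, chosen by the culture condition in their labels, are part of a series of 16 bulk RNA-seq libraries. The other libraries were 3 passages of the EpiSC line AFX6 in AFX medium and 6 libraries of formative stem (FS) cells, grown in A3XR medium and split evenly between the lines 5ar1 and 5ar3. They contributed to the common estimate of the spread and served as further comparisons for AF. Chromosome 11 genes, which took a larger share of the counts in AF than in any other library, are also described apart.

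ES cells and EpiSCs are both pluripotent cultures, but they match different stages of the early embryo. In 2iL medium, inhibitors of MEK and GSK3 together with the cytokine LIF hold ES cells in the naive state of the epiblast before implantation, where transcription factors such as Esrrb, Klf4 and Tfcp2l1 support Oct4 (Pou5f1). AF medium supplies activin, which signals through the Nodal receptors and Smad2/3, and FGF2, and it holds EpiSCs in a primed state related to the epiblast at gastrulation, poised to form the primitive streak and its derivatives. AFX medium adds an inhibitor of Wnt signalling to AF.

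AF and ES were each 1 line, so the passages were repeat samplings of a single culture, and line and medium cannot be told apart. The spread behind the p-values was estimated from all groups together, with 1 mean per group. That spread therefore holds the difference between the FS lines as well as the spread between passages. It holds no spread between separate lines of AF cells or of ES cells. The labels give no strain or sex for either line. In bulk RNA, fewer cells that express a gene and less RNA per cell cannot be told apart. Total counts were 27179567 to 32043159 per library in AF and 23146499 to 24635522 in ES. Mitochondrial ribosomal RNA took 17.9% to 23.8% of the counts in AF and 19.4% to 20.6% in 3 ES libraries, but 40.1% in ES passage 12, where the TMM-scaled depth was 14.5 M counts. CPM below are read counts scaled to library size. Across genes, whose values are not independent of each other, correlations of log2 CPM were 0.985 to 0.988 within AF, 0.969 to 0.990 within ES and 0.781 to 0.802 between the groups. Marker genes of each state followed the labels. All 7 ES cell markers were lower in AF, where they summed to 9.77 to 10.8 CPM against 2321 to 3628 CPM in ES, and all 7 EpiSC markers were higher, at 756 to 1147 CPM against 35.7 to 48.6 CPM. Of the latter, Fst was called at a log2 fold change of 1.27 but not without AF passage 14 (0.54), ES passage 15 (1.28) or ES passage 20 (1.04).

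Most expressed genes differed between the cultures. Of 18555 genes tested with edgeR's quasi-likelihood test, 10520 (56.7%) passed a Benjamini-Hochberg adjusted p of 0.05, with 5515 (29.7%) higher and 5005 (27.0%) lower in AF. These shares are the background against which every gene list below is to be read. Some lists share genes, so their counts are not separate results. All the ES cell markers above are also on the naive list. Zfp42 is also on the germline list, and Tfcp2l1 and Klf4 are also on the LIF list. The EpiSC markers above also recur in the lists below. At least 2-fold, 4203 genes (22.7%) were higher and 3098 (16.7%) lower. The libraries of the groups did not overlap in CPM for 11560 genes (62.3%). The median gene was level between the groups (log2 fold change 0.01). With total counts as the only scaling, the median moved to 0.29 and 66.3% of 9809 calls were higher in AF, against 52.4% of the main calls. Without ES passage 12 there were 10505 calls, 5626 higher and 4879 lower, of which 9764 were among the main calls. Outside chromosome 11, 9679 of 17159 genes were called, with 4972 higher and 4707 lower.

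Very large differences were common. The fitted difference was called and reached 32-fold for 864 genes higher and 687 lower in AF, and 128-fold for 290 and 383. Fitted folds against a group at or near 0 depend on the prior count and are no bounds. Part of this came from genes that were read in 1 culture and hardly in the other. In 1114 genes called higher, no ES library had more than 3 counts. Of these, 446 averaged at least 1 CPM and 50 at least 10 CPM in AF. In 530 genes called lower, no AF library had more than 3 counts. Of these, 380 averaged at least 1 CPM and 88 at least 10 CPM in ES. TMM-scaled depth was 14.5 to 23.5 M counts in ES and 28.3 to 31.1 M in AF. The limit of 3 counts was therefore easier to meet in ES, and the 2 numbers are not directly comparable. For such genes a fold change named below is given as a lower bound, computed against 3 counts per library in the silent group. Of the list genes named below, Etv4, Krt19, Lhx1, Wnt3, Wnt3a, Axin2, Notum, Stat3, Socs3, Nog, Sparc, Grb10 and Slc16a3 lie on chromosome 11. Library values are given below in the order p13, p14 and p15 for AF and p12, p13, p15 and p20 for ES.

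**Figure D1:**
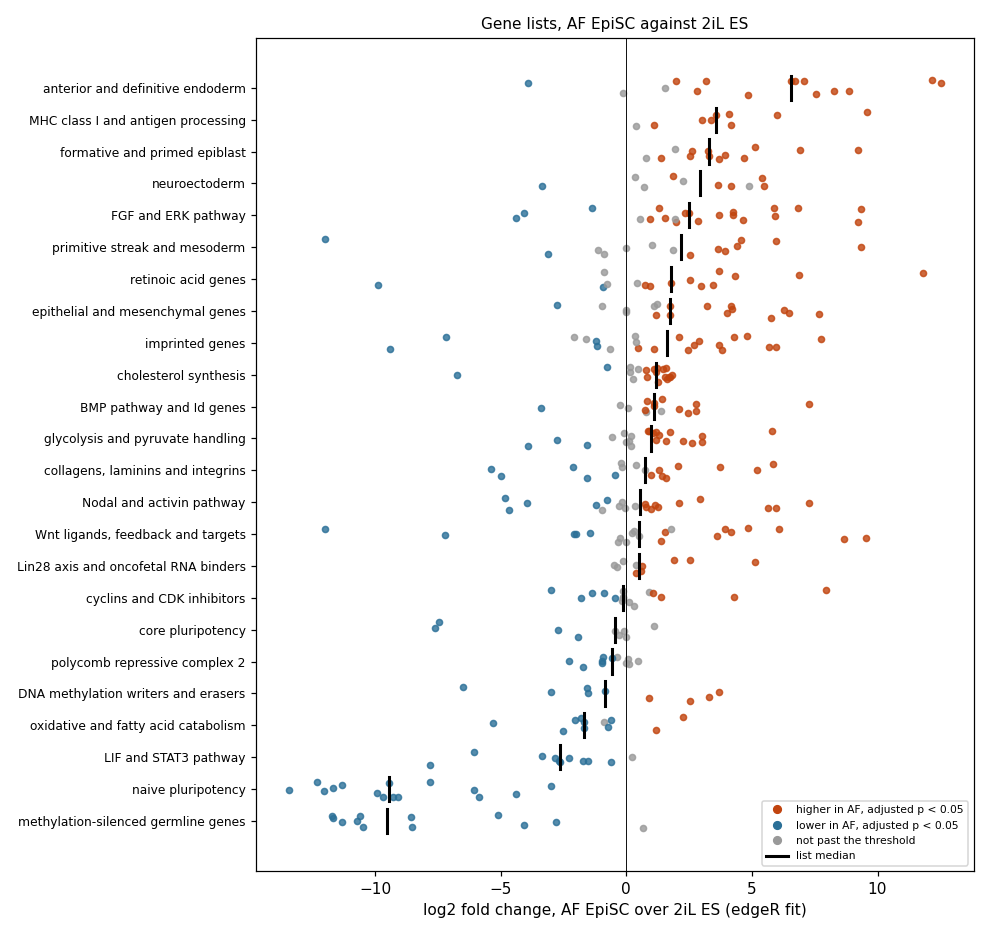
Log2 fold change of AF over ES (horizontal axis, from the edgeR fit) for every tested gene of 24 gene lists, 1 row of points per list, with the list median as a black bar. Orange and blue points passed the adjusted p of 0.05 in either direction and grey points did not. The germline and naive pluripotency lists lie to the left, with fitted medians of -9.52 and -9.44, and the endoderm list to the right, with a fitted median of 6.57.

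The naive transcription factors were almost silent in AF. All 15 genes of the naive list were called lower, with a median log2 fold change of -9.44 (-9.01 with silent genes at their bound) against 0.01 over all genes tested. Zfp42 (Rex1), a classical marker of naive cells, was at 0.129, 0.163 and 0.0708 CPM in AF and 263, 362, 300.1 and 389 CPM in ES, a 2592-fold difference (log2 fold change -11.34, SE 0.32, edgeR adjusted p 1.54e-13). The orphan nuclear receptor Esrrb was at 0.771, 0.458 and 0.743 CPM in AF and 542, 707, 692 and 612 CPM in ES, 966-fold lower (adjusted p 2.49e-10). Both genes were lower in every AF library than in any ES library by more than 2 orders of magnitude. Tfcp2l1, a LIF target that sustains self-renewal, kept a low level of 7.84, 8.14 and 7.15 CPM in AF, against 1233, 2101, 1969 and 1594 CPM in ES (223-fold lower). Klf4 was 66.3-fold lower, Klf2 57.97-fold lower, and Klf5, which retained 12.6, 6.44 and 10.5 CPM, 7.93-fold lower. Dppa3 (Stella), a maternal factor that protects methylation states, had no count in any AF library and 33.2, 10.9, 19.7 and 32.95 CPM in ES, at least 241-fold lower. Tcl1, a coactivator of Akt, was at 103, 112, 122 and 119 CPM in ES and at least 1140.5-fold lower, and Nr0b1 was at least 515-fold lower.

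The core factors changed far less. Pou5f1, the gene for Oct4, was at 528, 506 and 532 CPM in AF and 737, 770.1, 722 and 637 CPM in ES. Its libraries did not overlap, but the difference did not pass the edgeR test (log2 fold change -0.46, SE 0.31, adjusted p 0.215). It did pass in 2 of 18 alternative settings, so the missing call depends on the fit. Nanog fell to 189, 202 and 255 CPM from 955, 798, 764 and 791 CPM (3.84-fold, adjusted p 1.93e-06), and Sox2, the partner of Oct4, to 34.3, 40.9 and 21.8 CPM from 189, 231, 231 and 190.4 CPM (6.52-fold, adjusted p 3.24e-07). Of the 9 core genes, 4 were called lower and none higher. The others called were Dppa2, at least 165-fold lower, and Dppa4, 194-fold lower. Sall4 (log2 fold change -0.01) and Zfp281 (-0.07) were not called, and their libraries overlapped. Tdgf1 was not called either (-0.30), and its reads may be shared with its pseudogenes.

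**Figure D2:**
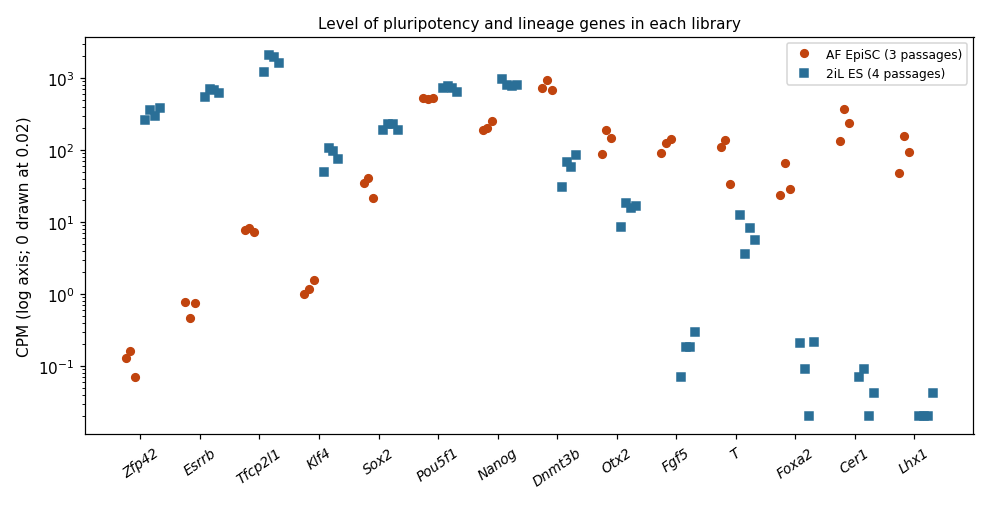
CPM in each library (vertical log axis, with 0 drawn at 0.02) for 14 pluripotency and lineage genes; orange circles are the 3 AF passages and blue squares the 4 ES passages. The points of the groups are apart for each gene drawn, by the least for Pou5f1, and Cer1 and Lhx1 lie at or near 0 in every ES library.

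Genes of the formative and primed epiblast rose together. Of 13, 11 were called higher and none lower, with a median log2 fold change of 3.29. Fgf5, the ligand that marks the epiblast after implantation, was at 90.7, 125 and 141 CPM in AF and 0.0691, 0.181, 0.182 and 0.298 CPM in ES (599-fold, adjusted p 4.31e-10). The POU factor Pou3f1 (Oct6) was 119-fold higher, at 35.5, 23.4 and 43.5 CPM against 0.276, 0.226, 0.456 and 0.170 CPM. Otx2, which directs Oct4 to new enhancers in the formative state, was 9.42-fold higher, at 88.7, 190.4 and 145 CPM against 8.43, 18.7, 15.9 and 16.8 CPM. All AF libraries lay above all ES libraries for these 3 genes. Sox4 (15.4-fold), Sox3 (25.4-fold; log2 fold change 4.67, and 5.39 without ES passage 20), Zic2 (5.85-fold) and Zic5 (6.14-fold) were also called. Etv4 was not, at 45.5, 57.8 and 54.8 CPM in AF and 2.42, 6.14, 8.52 and 37.1 CPM in ES (adjusted p 0.0711), but it was without ES passage 20, its highest ES library (log2 fold change 3.19). Foxd3 was not called and its libraries overlapped.

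The DNA methylation machinery changed in both directions, and all 9 genes were called, 4 higher and 5 lower. The de novo methyltransferase genes Dnmt3b and Dnmt3a rose. Dnmt3b was at 730.1, 941 and 691 CPM in AF and 30.8, 68.9, 57.5 and 85.5 CPM in ES (12.95-fold, adjusted p 1.92e-07), and Dnmt3a at 108, 98.2 and 133 CPM against 10.4, 9.57, 11.5 and 14.6 CPM (9.77-fold, adjusted p 3.47e-10). Their cofactor Dnmt3l went the other way, at least 74.3-fold lower, although its ES libraries were spread widely at 0.760, 5.83, 2.005 and 21.2 CPM and without passage 20 its log2 fold change was -5.14 in place of -6.50. Maintenance genes were lower, with Dnmt1 at 258, 231 and 263 CPM against 301, 516, 510.2 and 495 CPM (1.82-fold) and Uhrf1 2.995-fold lower. Among the Tet dioxygenases, which oxidise methylcytosine, Tet2 (8.03-fold) and Tet1 (2.90-fold) were lower and Tet3 (5.81-fold) was higher.

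A set of germline genes whose promoters are known to be silenced by DNA methylation in somatic tissues was at or near 0 in AF. Of 18 genes on the list, 12 passed the low-count filter, and 11 of these were called lower. The other 6 were at most 1.36 CPM in any of the 7 libraries. Because the genes passed the filter mainly through ES, this count is no evidence about the list. For 4 of the genes without a count in any AF library, the promoter window from 250 bases before to 50 bases after the RefSeq start is shown, since these are the sequences on which such methylation would act (GRCm38.p6, 5′ to 3′ on the gene's strand). They are Hormad1 (chr3:95559427-95559726, plus strand), Stk31 (chr6:49395289-49395588, plus strand), Mael (chr1:166238695-166238994, minus strand) and Mov10l1 (chr15:88982744-88983043, plus strand). Capitals mark the E-box CACGTG, which reads the same on both strands and which was chosen after values of these genes were known. The 4 genes had the largest fitted falls among called list genes with this motif in a window. Its presence in all 4 was therefore fixed by the choice.
Hormad1: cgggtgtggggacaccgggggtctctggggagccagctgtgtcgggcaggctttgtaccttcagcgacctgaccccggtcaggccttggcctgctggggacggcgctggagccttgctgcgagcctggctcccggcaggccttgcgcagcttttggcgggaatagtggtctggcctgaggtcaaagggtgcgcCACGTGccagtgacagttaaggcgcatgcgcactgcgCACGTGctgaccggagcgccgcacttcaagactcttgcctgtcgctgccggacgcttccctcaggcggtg
Stk31: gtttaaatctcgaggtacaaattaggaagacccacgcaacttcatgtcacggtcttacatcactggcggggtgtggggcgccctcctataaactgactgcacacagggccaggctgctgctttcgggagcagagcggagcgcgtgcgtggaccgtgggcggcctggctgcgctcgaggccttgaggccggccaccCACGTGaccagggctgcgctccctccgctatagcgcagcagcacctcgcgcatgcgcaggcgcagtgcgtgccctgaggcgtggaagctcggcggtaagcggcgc
Mael: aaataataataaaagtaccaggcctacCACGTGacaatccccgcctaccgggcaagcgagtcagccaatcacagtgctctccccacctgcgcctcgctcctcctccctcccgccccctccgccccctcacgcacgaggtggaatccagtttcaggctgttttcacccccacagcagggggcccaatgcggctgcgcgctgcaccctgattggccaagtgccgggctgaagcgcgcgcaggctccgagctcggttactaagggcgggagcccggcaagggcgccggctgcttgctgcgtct
Mov10l1: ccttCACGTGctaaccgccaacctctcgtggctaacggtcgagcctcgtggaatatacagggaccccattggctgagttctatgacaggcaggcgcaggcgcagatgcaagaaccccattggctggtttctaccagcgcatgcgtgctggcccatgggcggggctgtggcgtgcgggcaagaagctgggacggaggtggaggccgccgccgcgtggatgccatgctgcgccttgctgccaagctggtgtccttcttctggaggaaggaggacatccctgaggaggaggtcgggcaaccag
CACGTG was present in a window of 11 of the 17 listed genes that matched the promoter table, against 11.4% of the 11601 tested genes that matched and 8.09% of all 27025 genes in it. Of the 10 matched list genes called lower in AF, 6 held it. A gene with several starts was counted if any window held the motif. These matches describe sequence only, since neither methylation nor binding was measured here.

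Hormad1, which organises meiotic chromosome axes, had no count in AF and was at 22.6, 9.30, 13.7 and 15.99 CPM in ES (at least 154-fold lower). Stk31, a germ cell kinase-like protein, was at 9.40, 6.05, 6.24 and 7.48 CPM in ES (at least 72.8-fold), and the piRNA pathway genes Mael and Mov10l1 at 2.21, 1.90, 1.69 and 1.45 CPM and 0.760, 1.63, 1.37 and 3.23 CPM (at least 18.1-fold and 17.4-fold). No ES library was at 0 for any of these 4 genes. The germ cell RNA-binding protein gene Dazl was at 0.0643, 0 and 0.0354 CPM in AF and 23.01, 38.7, 59.4 and 94.1 CPM in ES (at least 537-fold lower). Rpl10l, a retrogene of a ribosomal protein used in the testis, was at 69.4, 96.3, 98.4 and 101 CPM in ES and at least 912-fold lower. Sycp3 was 16.7-fold lower, but ES passage 12 stood at 28.2 CPM above the other ES libraries and without it the log2 fold change was -3.35 in place of -4.07. Brdt was not called, at 0.739, 0.360 and 0.672 CPM in AF and 0.138, 0.316, 0.182 and 0.808 CPM in ES.

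Genes of the Nodal and activin pathway moved in both directions, with 10 of 20 called higher and 5 lower (median log2 fold change 0.54). Among the ligands and co-receptors, Nodal itself was not called, at 22.1, 37.9 and 24.8 CPM in AF and 47.5, 65.3, 58.6 and 51.2 CPM in ES (adjusted p 0.213), although its groups did not overlap. Gdf3, a Nodal-related ligand, was 28.3-fold lower, and Cfc1 (Cryptic), an EGF-CFC co-receptor, 50.1-fold higher. The secreted antagonists that Nodal signalling induces split. Lefty1 was at 81.03, 209 and 194 CPM in AF and 12.7, 15.9, 26.3 and 29.5 CPM in ES (7.61-fold higher, adjusted p 0.00210), whereas Lefty2 was at 9.29, 10.2 and 8.63 CPM against 153, 146, 172 and 116 CPM (15.6-fold lower, adjusted p 1.72e-05). Neither pair of groups overlapped. The activin receptor genes Acvr2a (2.23-fold) and Acvr2b (1.96-fold) were higher. The signal transducers Smad2 and Smad3 were not called and Smad4 was 1.71-fold higher. Skil, a feedback inhibitor of Smads, was 4.25-fold higher, and Pcsk6, a convertase that cleaves Nodal, 25.2-fold lower.

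Genes of the primitive streak and of its endoderm were expressed in AF. Of 14 streak and mesoderm genes tested, 7 were called higher and 2 lower (median log2 fold change 2.19, or 1.94 with silent genes at their bound), and of 15 endoderm genes, 12 were called higher and 1 lower (median 6.57, or 4.85 with silent genes at their bound). Brachyury, T, was at 110.5, 136 and 33.3 CPM in AF and 12.6, 3.57, 8.34 and 5.57 CPM in ES (12.5-fold, adjusted p 0.00124). Eomes was at 35.3, 126 and 65.8 CPM against 1.66, 3.43, 2.64 and 4.72 CPM (23.9-fold, adjusted p 1.35e-07). Mixl1 was at 8.36, 36.9 and 12.3 CPM against 0, 0.497, 0.364 and 0.298 CPM (61.6-fold; log2 fold change 5.94, and 5.06 without AF passage 14). Every AF library was above every ES library for each of these 3 genes, and passage 14 was the highest AF library for all of them.

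Passage 14 was also the highest AF library for the endoderm genes Cer1, Foxa2, Sox17, Gata6 and Gata4. The secreted antagonist Cer1, made by anterior endoderm, was at 134, 375 and 235 CPM in AF, and no ES library had more than 0.0903 CPM, so that it was at least 1634-fold higher (log2 fold change 12.18, SE 1.98, adjusted p 7.24e-05). The pioneer factor Foxa2 was at 23.5, 65.99 and 28.3 CPM against 0.207, 0.0903, 0 and 0.213 CPM (309-fold; log2 fold change 8.27, and 7.67 without passage 14). Sox17 was 185-fold higher, at 22.2, 60.8 and 34.1 CPM (log2 fold change 7.53, and 8.33 without ES passage 15), and Gata6 136-fold higher, at 9, 31.3 and 16.7 CPM. Gata4 (2.82, adjusted p 0.00992) was not called without passage 14, where its log2 fold change was 2.09. The keratin gene Krt19 did not follow this order and was lowest in passage 14, at 130.3, 61.6 and 167 CPM against 1.45, 0.497, 1.05 and 2.04 CPM in ES (94.9-fold). Trh, the thyrotropin-releasing hormone gene, was the endoderm gene called lower (15.1-fold).

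The streak genes called lower were Cdx1 and Mesp2. Cdx1, a caudal homeobox gene, had no count in any AF library and 20.04, 18.6, 25.1 and 14.5 CPM in ES (at least 195-fold), and Mesp2 was at least 3.21-fold lower from levels under 1 CPM. The neuroectoderm list was mixed, with 5 of 10 called higher and 1 lower (median log2 fold change 2.94, or 2.04 with silent genes at their bound). Nes, the intermediate filament nestin, was at 481, 264 and 504 CPM in AF and 22.7, 21.2, 21.05 and 28.8 CPM in ES (17.8-fold, adjusted p 3.83e-09). The other genes called higher were at no more than 1.96 CPM in AF, and of these Pax6, at a log2 fold change of 1.84, lost its call without AF passage 13 (1.38) or 14 (1.73) and without ES passage 12 (1.80), 13 (1.72) or 15 (1.49). Sox1 was not called, at 10.4, 5.36 and 3.57 CPM in AF and 0.760, 0.632, 1.91 and 2.08 CPM in ES. Gbx2 was 10.4-fold lower.

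The Wnt list held 9 of 21 genes called higher and 5 lower (median log2 fold change 0.50), with both directions among its feedback targets. Wnt8a, a streak ligand, was at 36.6, 44.9 and 9.80 CPM in AF and at least 201-fold higher, and Wnt3 was 15.2-fold higher, at 8.32, 23.4 and 8.99 CPM against 1.17, 0.361, 1.05 and 1.02 CPM (log2 fold change 3.92, and 3.27 without AF passage 14). Lgr5, a receptor of R-spondins and a Wnt target, was at 12.7, 24.4 and 13.02 CPM in AF and at least 110.05-fold higher. Lef1, a nuclear effector, was 12.1-fold higher, at 32.1, 34.7 and 21.3 CPM against 1.45, 1.90, 3.23 and 2.98 CPM. By contrast Axin2, a direct target that limits the pathway, was 4.03-fold lower, at 14.1, 22.7 and 12.2 CPM against 51.7, 66.4, 88.5 and 57.02 CPM (adjusted p 2.08e-05). Sp5 was at 3.21, 10.9 and 2.62 CPM against 17.3, 20.5, 33.9 and 22.5 CPM (4.23-fold lower; log2 fold change -2.08, and -3.01 without AF passage 14), and Notum, a secreted deacylase of Wnt, was 149-fold lower. Another feedback gene, Nkd1, was 17.8-fold higher. The ES cells were grown with a GSK3 inhibitor, and AF cells without. Ctnnb1, the gene for beta-catenin, was not called (-0.34), except without ES passage 20 (-0.41).

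Most listed LIF and STAT3 genes fell and most listed FGF and ERK genes rose. Of 11 LIF genes, 10 were called lower and none higher (median log2 fold change -2.63). The receptor subunit Lifr was at 25.2, 37.1 and 20.5 CPM in AF and 129, 193, 178 and 184 CPM in ES (6.20-fold), and Il6st (gp130) was 4.83-fold lower. Stat3 was at 35.6, 26.1 and 35.99 CPM against 73.2, 123, 114 and 121 CPM (3.31-fold, adjusted p 6.94e-06), and its target Socs3, an inhibitor of the receptor, was 6.34-fold lower. The kinase gene Jak1 was not called (0.23).

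Of 21 FGF and ERK genes, 16 were called higher and 3 lower (median log2 fold change 2.50). The phosphatase Dusp6, a direct readout of ERK activity, was at 143, 152 and 143 CPM in AF and 5.18, 8.13, 7.02 and 10.6 CPM in ES (18.8-fold, adjusted p 1.71e-07). Its nuclear relative Dusp4 was at 41.4, 42.8 and 25.7 CPM against 1.87, 0.406, 0.0911 and 0.383 CPM (log2 fold change 5.88, and 6.94 without ES passage 12, its highest ES library). The immediate early gene Egr1 was 60.5-fold higher and Fos 5.67-fold. The feedback inhibitors Spry1 (5.003-fold) and Spred1 (2.92-fold) were higher, and Spry2 was not called. Etv5 was called lower (log2 fold change -1.37), but not without AF passage 13 (-1.37) or 14 (-1.28), nor with total counts as the only scaling. Spry4 was at 0.276, 1.17, 0.228 and 6.04 CPM in ES, where passage 20 stood apart (log2 fold change 3.68, and 5.44 without it). Among the ligands, Fgf8 was at least 175-fold higher and Fgf4, an autocrine signal of ES cells, 21.1-fold lower. Receptor genes Fgfr1 (2.47-fold) and Fgfr2 (7.31-fold) were higher. The MEK inhibitor was a component of the ES medium only.

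BMP and retinoic acid genes were mostly higher. On the BMP list, 10 of 15 were called higher and 1 lower (median log2 fold change 1.10). The target genes Id1 (4.32-fold), Id2 (6.78-fold) and Id3 (6.82-fold) were higher, and Id3 was 3.41 on the log2 scale without ES passage 20 in place of 2.77. Id4 was 10.6-fold lower. The BMP antagonist Nog was at 7.81, 5.95 and 5.45 CPM in AF and at least 42.2-fold higher. On the retinoic acid list 10 of 15 were called higher and 2 lower (median 1.76). Cyp26a1, the enzyme that degrades retinoic acid, was at 36.6, 98.8 and 44.98 CPM in AF, with 1 count in 1 ES library and none in the others (at least 396-fold higher). Stra8, a retinoic acid target that starts meiosis, had no AF count and was at 3.94, 2.08, 6.20 and 5.91 CPM in ES (at least 45.2-fold lower). Crabp1 lost its call without AF passage 13, which was at 43.4 CPM against 7.35 and 3.93 CPM in the other AF libraries (log2 fold change 0.84 in place of 2.53).

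Of 17 epithelial and mesenchymal genes tested, 11 were called higher and 1 lower (median log2 fold change 1.75). E-cadherin, Cdh1, was not called, at 375, 286 and 363 CPM in AF and 454, 679.7, 707 and 805 CPM in ES. N-cadherin, Cdh2, was 54.6-fold higher, at 77.6, 107 and 81.3 CPM against 0.760, 1.81, 2.32 and 1.45 CPM (adjusted p 7.80e-08). Epithelial genes rose alongside it, with Krt18 78.1-fold, Esrp1, an epithelial splicing factor, 88.3-fold, Cldn6 18.2-fold and Epcam 9.16-fold higher. Mesenchymal Vim was 2.28-fold and the repressor Zeb2 203-fold higher. Snai1 was not called. Fibronectin, Fn1, was 6.80-fold lower, at 139, 91.2 and 107 CPM against 776, 699.9, 939 and 639 CPM.

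Of 17 collagen, laminin, integrin and other matrix genes, 8 were called higher and 5 lower. Col4a1 was at 83.8, 108 and 54.8 CPM in AF and 1.04, 1.13, 0.820 and 2.59 CPM in ES (57.6-fold) and Col4a2 was 37.2-fold higher. Laminin alpha 1, Lama1, was 42.4-fold lower, at 3.92, 6.41 and 6.05 CPM against 241, 206, 309 and 169 CPM, and nidogen, Nid1, 31.98-fold lower, while Lamb1 was 2.98-fold higher. Most markers of fibroblasts were higher in AF. Of 11 tested, 10 were called higher, and the 12 listed genes summed to 89.7 to 199.5 CPM in AF against 6.50 to 10.5 CPM in ES, where 6 of the 12 were at or under 3 counts in every library and 2 of these had no count. They summed to 44.1 to 69.9 CPM in AFX and 49.8 to 149 CPM in FS. Col1a2 was at 35.7, 18.96 and 28.7 CPM in AF, Col3a1 at 20.9, 4.31 and 10.2 CPM and Acta2, smooth muscle actin, at 78.7, 26.3 and 34.5 CPM, while Lum was at 0, 0.131 and 0.106 CPM. Whether fibroblasts or feeder cells contributed to the AF values was not tested.

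Markers of 3 further cell types were counted. Of 7 trophoblast genes tested, 5 were called higher and 1 lower, and the 10 listed summed to 46.7 to 145 CPM in AF against 53.0 to 69.1 CPM in ES. The placental hormone gene Prl3d1 had no count in any of the 7 libraries. Of 7 extraembryonic endoderm genes, 6 were called higher and 1, Apoe, lower (13.3-fold), and the 11 listed summed to 429.7 to 639 CPM in AF against 783 to 1121 CPM in ES. Afp and Ttr, which define the visceral endoderm, were at no more than 0.193 CPM in any library. Of 8 neuron genes, 6 were called higher, with sums of 48.7 to 65.6 CPM in AF and 16.4 to 70.4 CPM in ES. Dcx, a protein of migrating neurons, was at 3.60, 6.50 and 2.90 CPM in AF and had no ES count, and Tubb3 was not called (-0.77), except without ES passage 12 (-1.03).

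Imprinted genes, which are expressed from 1 parental allele, were called higher in 13 of 22 cases and lower in 4 (median log2 fold change 1.60). Igf2, the growth factor gene, was at 109, 69.4 and 67.6 CPM in AF and 1.38, 0.226, 0.182 and 0 CPM in ES (217-fold; log2 fold change 7.76, and 9.22 without ES passage 12, its highest ES library). Grb10, an adaptor that limits insulin signalling, lies on chromosome 11 and was at 1447, 1667 and 1551 CPM in AF against 88.7, 51.7, 49.8 and 31.1 CPM (28.2-fold, adjusted p 1.74e-10). Peg3 was 7.44-fold and Cdkn1c 19.6-fold higher. Kcnq1ot1, the long RNA that silences the Cdkn1c cluster in cis, was at 0.0964, 0.131 and 0.283 CPM against 87.6, 118, 115 and 150.1 CPM (683-fold lower, adjusted p 5.03e-09). Cdkn1c and Kcnq1ot1 thus lay apart between the groups in opposite directions in every library. Slc38a4 was 146-fold lower, at 1.77, 1.18 and 0.318 CPM against 218, 163, 134 and 131 CPM. Meg3 was 2.12-fold higher, and Mirg of the same cluster was not called.

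Most tested genes of the glycolysis list rose and most of the oxidative and fatty acid list fell. Of 22 glycolysis and pyruvate genes, 13 were called higher and 3 lower (median log2 fold change 0.97). The glucose transporter gene Slc2a1 was at 827, 827 and 1159.6 CPM in AF and 131, 141, 139.5 and 207 CPM in ES (6.07-fold, adjusted p 8.08e-08). Lactate dehydrogenase A, Ldha, was at 991, 1122 and 1073 CPM against 142, 124, 94.8 and 174 CPM (7.95-fold, adjusted p 3.91e-10), and Ldhb was 15-fold lower, at 35.2, 38.8 and 26.2 CPM against 686, 372, 504 and 443 CPM. The subunits of lactate dehydrogenase thus changed in opposite directions. The lactate exporter Slc16a3 was at 446, 515 and 641 CPM against 6.22, 6.14, 4.602 and 21.6 CPM (log2 fold change 5.78, and 6.56 without ES passage 20). Among phosphofructokinase genes, Pfkl was 8.12-fold higher, Pfkp 2.97-fold lower and Pfkm not called (-0.03). Pkm, pyruvate kinase, had the largest gain in CPM of all eligible genes outside chromosome 11, from 928, 952, 796 and 939.8 CPM to 1989, 2053 and 2025 CPM (2.24-fold). Gapdh (-0.09) and Gpi1 (0.12) were not called. Hexokinase 1, Hk1, was 6.76-fold lower.

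On the oxidative and fatty acid list, 8 of 11 genes were called lower and 2 higher (median log2 fold change -1.69). Cpt1a, which carries fatty acids into mitochondria, was at 4.34, 3.04 and 5.87 CPM in AF and 146, 179, 218 and 166 CPM in ES (40.1-fold, adjusted p 3.66e-08). Acadm, a fatty acid dehydrogenase, was 4.07-fold, Sod2 3.54-fold and Idh2 3.22-fold lower, whereas Acadl was 4.82-fold higher. Of 19 cholesterol synthesis genes 13 were called higher and 2 lower (median 1.16). Hmgcs1, which makes HMG-CoA, was at 1272, 1007 and 1062 CPM against 275, 381, 309 and 313 CPM (3.48-fold). Insig1, the sterol-regulated inhibitor of the pathway, was at 2.83, 1.93 and 0.389 CPM against 173, 201, 174 and 189.9 CPM (106-fold lower, adjusted p 0.00194).

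Among 16 cyclins and CDK inhibitors, 4 were called higher and 5 lower, a split that turned to 5 and 4 with total counts as the only scaling, where the list median moved from -0.12 to 0.13. Cyclin D2, Ccnd2, was at 154, 124 and 144 CPM in AF and 0.415, 0.632, 0.775 and 0.425 CPM in ES (245-fold, adjusted p 2.41e-11), while cyclin D1, Ccnd1, was not called (-0.13). The p53 target Cdkn1a was 3.50-fold lower, at 24.5, 20 and 17.7 CPM against 49.96, 69.1, 86.9 and 84.3 CPM. Of 10 genes of the Lin28 axis, whose proteins restrain let-7 or bind growth-related mRNAs, 6 were called higher and none lower. Lin28b was at 165, 152 and 173 CPM against 4.35, 4.15, 4.10 and 5.87 CPM (35.2-fold, adjusted p 7.03e-12), and Lin28a was 5.82-fold higher. Of 11 genes of polycomb repressive complex 2, 6 were called lower and none higher (median log2 fold change -0.57). The catalytic subunit Ezh2 was not called (-0.03), and the accessory subunit Mtf2 (4.85-fold) and the core subunit Eed (3.35-fold) were lower, both with ES passage 12 as the highest library.

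MHC class I genes and the proteins that load them, which present peptides to T cells, were called higher in 8 of 9 cases (median log2 fold change 3.55, or 3.37 with silent genes at their bound). Tap2, a peptide transporter, was at 9.58, 7.91 and 9.17 CPM in AF and 0.207, 0.0903, 0.273 and 0 CPM in ES (63.1-fold; log2 fold change 5.98, and 6.61 without ES passage 15), and the immunoproteasome subunit Psmb8 at 16.9, 10.9 and 10.97 CPM in AF and at least 85.2-fold higher. H2-D1 (17.02-fold) and H2-K1 (10.3-fold) were higher, but reads of this multigene family can be split between members. Tapbp was not called.

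Further genes were taken by a fixed rule (the largest fitted folds among called genes whose groups did not overlap and whose higher group averaged 10 CPM or more). The order within these names rests on fitted folds against silent groups and is not an order of the bounds. Beside Cer1 and Cyp26a1, the rises named were Samd3 (at least 98.1-fold), the fatty acid binding protein Fabp7 (at least 83.3-fold), caveolin, Cav1 (at least 74.8-fold), the interferon-induced GTPase Gbp2b (at least 349-fold), the protocadherin Pcdh7 (at least 414-fold), cardiac actin, Actc1 (at least 122-fold), Psmb8 and Pkdcc (at least 515-fold). Pcdh7 was at 43.2, 81.3 and 64.2 CPM in AF and Pkdcc, a secreted kinase, at 63.1, 93.2 and 77.99 CPM, with every ES library of both at or under 0.138 CPM. Cav1 was spread widely over AF, at 21.2, 8.30 and 4.56 CPM. The falls named were Spic, a PU.1-related factor without a count in AF and at 65.4, 53.8, 51.2 and 38.9 CPM in ES (at least 522-fold), Crxos (at least 1353-fold), the inflammasome adaptor Pycard (at least 267-fold), Triml1 (at least 840.4-fold), Fmr1nb (at least 246-fold), Dppa3, Ftl1-ps2, Nlrp4f (at least 211-fold), Tcl1 and Pla2g4e (at least 197-fold). Ftl1-ps2 is a pseudogene whose reads may belong to its parent gene.

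By change in CPM, the largest losses outside chromosome 11 were of Rmrp, the RNA of RNase MRP, then Tfcp2l1, Hsp90aa1, Rps3 and the pseudogene Eif4a-ps4. All of these but Tfcp2l1 were highest in ES passage 12. Rps3 was at 1029.8, 919.8 and 956 CPM in AF and 4566, 1379.6, 1593 and 1296 CPM in ES, and without that library its log2 fold change was -0.55 in place of -1.19. Rmrp was at 4831, 4017 and 4131 CPM in AF and 19609, 6775, 7956 and 7796 CPM in ES (log2 fold change -1.28, adjusted p 0.00561). Hsp90aa1, a heat shock protein gene, was at 576, 545 and 532 CPM against 3179, 1526, 1491 and 1132 CPM (3.32-fold lower). Reads of Eif4a-ps4 may belong to a related gene such as Eif4a1, which was not tested. Eif4a1 lies on chromosome 11 (chr11:69666936-69672423) and was 2.59-fold lower in AF than in ES. The loss of Eif4a-ps4 may therefore not lie outside that chromosome.

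Chromosome 11 was described apart. It held 1396 tested genes, of which 543 (38.9%) were called higher in AF than in ES and 298 (21.3%) lower, against 29.7% and 27.0% of all genes. Its median log2 fold change of 0.29 was matched by chromosome 14, also at 0.29 with 42.0% of its genes called higher, so in this comparison alone the chromosome did not stand apart by its median. The comparisons with the other cultures differed. Against AFX, where 791 genes (4.26%) were called, 526 (2.83%) higher in AF and 265 (1.43%) lower, chromosome 11 had a median of 0.42 and the next chromosome, 8, of 0.15. It held 7.52% of the tested genes and 35.5% of these calls. Against FS, where 3089 genes (16.6%) were called, 1634 (8.81%) higher and 1455 (7.84%) lower, its median was 0.39. The count against AFX depended on single libraries: it was 463, 403 and 493 without AF passage 13, 14 or 15, and 351 and 354 without AFX passage 5 or 8. The count against FS was 1799, 1987 and 1982 without AF passage 13, 14 or 15.

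The share of counts on the numbered chromosomes that fell on chromosome 11 was 11.3%, 11.6% and 11.8% in the AF libraries and 8.29%, 8.83%, 8.75% and 8.71% in the ES libraries. All AF libraries were above all others, since no library of any other group exceeded 8.83%. The ratio of the mean shares was 1.34 to ES, 1.37 to AFX and 1.39 to FS. Only chromosome 10 also had a higher share in every AF library than in all 13 others, at ratios of 1.10, 1.06 and 1.08.

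**Figure D3:**
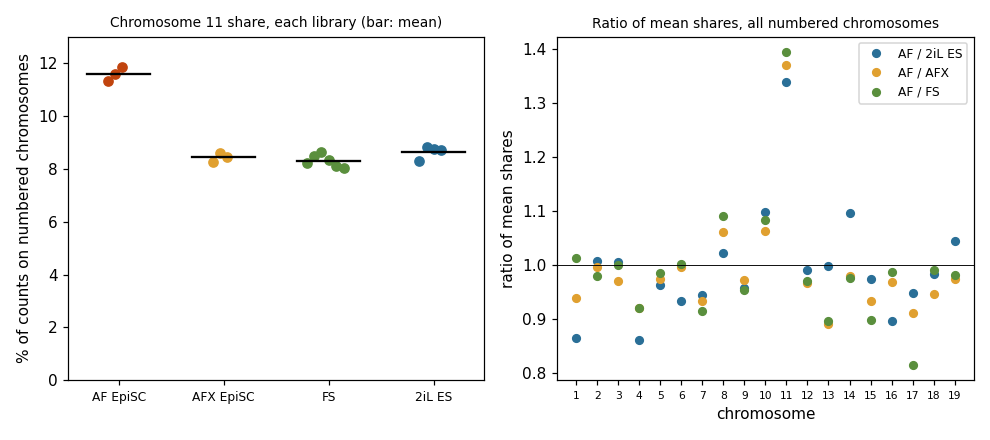
Left, percent of counts on the numbered chromosomes that fell on chromosome 11, 1 point per library and a bar at the group mean, with an axis from 0. Right, ratio of the mean AF share to the mean share of ES, AFX and FS for chromosomes 1 to 19, where chromosome 11 reaches 1.34, 1.37 and 1.39 and no other chromosome exceeds 1.10.

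The rise was not even along the chromosome. The 767 chromosome 11 genes with a mean of at least 10 CPM over the 16 libraries were put in order and divided into 4 stretches at the places that best fit steps in the AF to FS difference. The same boundaries came from the differences to AFX and to ES, which use the same AF libraries and so are not independent of it. As the stretches were drawn from these values, they are described without a test. The first ran from the start of the chromosome to Sec24a (chr11:3125904-51763634, 175 genes) and had median log2 fold changes of 0.22 against ES, 0.40 against AFX and 0.44 against FS. The second, of 107 genes from Sar1b to Aurkb (chr11:51763687-69051664, 17.3 Mb), had medians of 0.97, 1.09 and 1.14, or folds of 1.96, 2.13 and 2.20. The third, of 37 genes from Tmem107 to Mink1 (chr11:69070806-70614483, 1.54 Mb), went the other way, with medians of -0.9997, -1.08 and -1.15, or 0.5001, 0.473 and 0.450 of the level in the other cultures. The last, of 448 genes from Slc25a11 to B3gntl1 (chr11:70644196-121673153), had medians of 0.25, 0.38 and 0.38. Coordinates are on mm10, with gene positions from GENCODE M21.

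In the second stretch 105 of 107 genes were above their AFX level and 106 above their FS level, and 92 were above their ES level. In the third none of 37 was above its AFX or FS level and 5 were above their ES level. Single libraries repeated this order. Relative to the FS mean, the median of the second stretch was 1.09, 1.06 and 1.17 in the AF libraries and between -0.05 and 0.14 in every library of the other groups. The median of the third stretch was -1.12, -1.13 and -1.13 in AF, -0.53 in ES passage 12 and between -0.22 and 0.13 in the other libraries. In the comparisons without AF, of AFX and FS against ES, the medians lay between -0.23 and 0.04 in all 4. In windows of 15 neighbouring genes, 7 of 51 windows on chromosome 11 were above 0.7 on the log2 scale against both AFX and FS, and none of 579 on the other chromosomes. Below -0.7 there were 2 on chromosome 11 and 3 elsewhere, all 3 in the histone cluster of chromosome 13. DNA copy number was not analysed here.

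**Figure D4:**
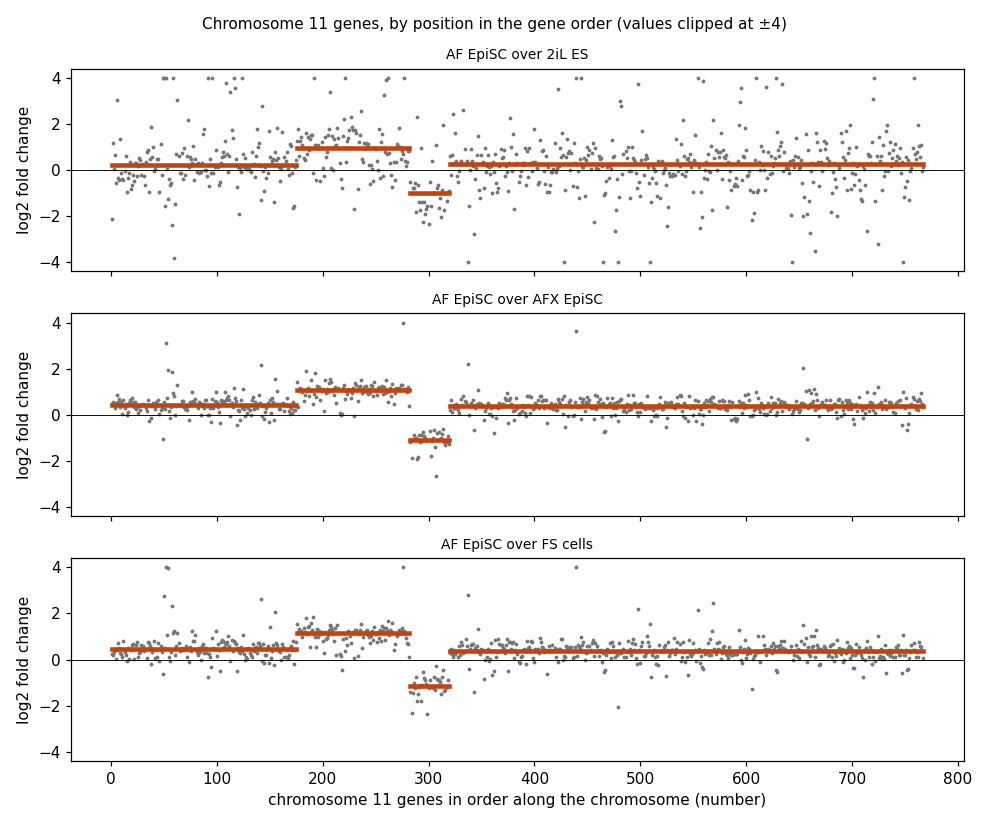
Log2 fold change of AF over ES, AFX and FS (vertical axes, clipped at 4) for 767 chromosome 11 genes in their order along the chromosome (horizontal axis, gene number), with the median of each of 4 stretches as an orange bar. The second stretch lies near 1 and the third near -1 in all 3 panels.

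Genes of the second stretch, chosen after their values were seen, show this scale. Rad50, a DNA break repair protein (chr11:53649519-53707319), was at 217, 218 and 240.3 CPM in AF and 65.03, 80.7, 82.5 and 86.4 CPM in ES (2.86-fold, adjusted p 4.65e-09), with log2 fold changes of 1.09 against AFX and 1.28 against FS. The deubiquitinase Usp22 was 3.47-fold higher than in ES, at 431, 417 and 477 CPM against 112, 129, 137 and 131 CPM. Map2k4, a kinase of the JNK pathway, was 3.58-fold higher, at 235, 229.9 and 219.5 CPM against 57.2, 68.2, 62.1 and 67.2 CPM. The nuclear corepressor Ncor1 was not called against ES (0.30) but was higher than in AFX (1.14, adjusted p 0.00639) and FS (1.27, adjusted p 0.000154). Sparc, a matrix protein counted above among the matrix and the extraembryonic endoderm genes, also lies here, with log2 fold changes of 1.44 against ES, 1.52 against AFX and 1.21 against FS.

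The third stretch held Trp53, the gene for p53 (chr11:69580359-69591873, plus strand), also chosen after its values were seen. It was at 81.3, 72.3 and 53.01 CPM in AF and 165, 257, 259.6 and 251 CPM in ES, with every AF library below every ES library (3.38-fold lower, log2 fold change -1.76, SE 0.26, adjusted p 2.15e-05). Against AFX the log2 fold change was -1.19 (adjusted p 0.0167) and against FS -1.09 (adjusted p 0.00464). Its neighbours were lower too. Eif5a, a translation factor, was at 218, 188 and 211 CPM against 342, 452, 402 and 449 CPM, and Dvl2, a transducer of Wnt signals, at 17.9, 20.1 and 20.6 CPM against 67.3, 79.8, 92.3 and 81.5 CPM (4.11-fold lower). Polr2a, the largest subunit of RNA polymerase II, was 3.21-fold lower. Kdm6b, a histone demethylase, was not called against ES (-0.65, adjusted p 0.227).

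Single genes of the chromosome went far beyond these steps. By the same rule the rises named were Lhx1, a head organiser factor at 48.1, 157 and 93.3 CPM in AF (at least 655-fold), Car4 (log2 fold change 8.45), Pkd1l1 (7.43), Mrc2 (7.32) and Mfap4 (6.61, and 7.55 without ES passage 20). The falls named were the meiotic factor Meioc (at least 109-fold), the LIF-related cytokine Osm (at least 277-fold), the ubiquitin ligase Trim25 (at least 1038-fold), Calcoco2 (at least 967-fold) and Aspa (at least 109-fold). Trim25 was at 0.0964, 0.0654 and 0.0354 CPM in AF and 68.1, 119, 113 and 116 CPM in ES. Counts for AF against ES changed little without the chromosome: when its genes were left out before fitting, 9654 others were called, against 9679 in the fit with it. Against AFX 407 others were called, 243 higher and 164 lower, in place of 291 higher and 219 lower.

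The gene groups above were also tested directly against the other primed and formative cultures. These comparisons use the same AF libraries. The lines also differed in Y-linked genes and Xist: Ddx3y was at 114, 108 and 124 CPM in AF and at no more than 0.2698 CPM in AFX, and Xist, which coats the inactive X, was at no more than 0.523 CPM in AF and 245 to 557 CPM in AFX, so that sex of the line and medium cannot be told apart in the comparison with AFX. Of the 15 endoderm genes, 13 were called higher in AF than in FS and none lower, against 8.81% of all genes called higher. Against AFX none of the 15 passed edgeR's adjusted p, against 2.83% of all genes called higher, but all 15 had a fold change above 0 (median log2 fold change 2.38), 11 were under an unadjusted p of 0.05 and DESeq2 called 1. AFX passage 12 was higher than the other AFX libraries for most of these genes, with Cer1 at 90.97 CPM there and at 1.9995 and 0.407 CPM in AFX passages 5 and 8. Without AFX passage 12, 13 of the 15 were called higher in AF, but none was without AFX passage 5 or 8. Of the 14 streak genes, 10 were higher and 1 lower than in FS. Against AFX, 4 were higher (median 2.22), among them Eomes (2.21), Mixl1 (4.01) and Pdgfra (2.95), and 5 without AFX passage 12 but 2 without passage 5 or 8. Of the 21 Wnt genes 10 were higher than in FS. Against AFX, 3 of the 21 were higher (median 0.77), among them Sp5 at 5.18 and Wnt3a at 5.02. These were 5 without AFX passage 12 but 2 without passage 5 or 8. Of the 21, 7 lie on chromosome 11, Wnt3a among them. On that chromosome 31.2% of all tested genes were called higher than in FS and 16.8% higher than in AFX. The Wnt counts were not split by chromosome. Of the 15 naive genes, 2 were higher and 1 lower than in FS, and 1 was higher than in AFX, Klf2 (1.70), and none without AFX passage 5 or 8. Among the genes named for their change against ES, Fabp7 and Psmb8 were higher in AF than in both AFX (3.20 and 2.77) and FS (3.17 and 4.98). Cer1 was higher than in FS (7.88, adjusted p 0.000334), and its difference from AFX was not called (2.99, adjusted p 0.231).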

How the data were processed

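Total RNA of 16 cultures was sequenced as directional libraries, per the labels' protocols. The authors deposited 1 table of raw read counts per gene. The submitters' processing notes name Trim Galore, TopHat2 2.1.0, featureCounts 1.5.0 and the build mm10; the annotation release and the strand setting are not given in the sources used here, so antisense, overlapping and near-identical genes are uncertain. Of 34042 genes, 2003 had no count and 18555 passed edgeR's filterByExpr. In the table, 6 columns matched no sample and were not used. Positions came from GENCODE M21, which held 33860 of the identifiers, 32492 under the same symbol; 59 tested genes had no position.

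Counts were scaled by TMM and tested with edgeR 4.0.16 (R 4.3.3, limma 3.58.1) by a robust quasi-likelihood fit to all 16 libraries with 1 mean per group, after the procedure had been tested on simulated data. A gene was called at a Benjamini-Hochberg adjusted p of 0.05. CPM used TMM-scaled library sizes. Promoter windows came from RefSeq on GRCm38.p6, which is the sequence mm10 shows. DESeq2 1.42.0, other scalings, filters and fits, and leaving out each library were the alternatives.

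The members and gene lists were chosen with earlier results of these data known. Genes outside the lists were named by rule: among called genes at least 2-fold apart, with a higher group of 10 CPM or more and no overlap, the 10 largest fitted log2 changes and 5 largest CPM changes in each direction outside chromosome 11, and the 5 largest log2 changes in each direction on it. Predicted and mitochondrial genes were passed over. Of the listed genes, 1 (Epop) was not found in the table.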

Additional observations from a re-analysis of the deposited data

Results flagged for a closer look

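In groups of 4 or more libraries, 51 sets of values were examined for 1 library far from the rest, and 12 such values were found, 10 of them in ES passage 12. Independent sets would give about 1 in 20 by chance. The sets here share libraries, and some genes in them were named for their CPM loss from ES. That rate therefore does not apply, and the count is a description. Mitochondrial ribosomal RNA took 40.1% of the counts in ES passage 12 and 19.4% to 20.6% in the other ES libraries. Among chromosome shares, chromosome 4 was at 7.94% there against 6.66% to 6.76%, chromosome 13 at 4.26% against 3.66% to 3.71%, and chromosome 5 at 5.83% against 6.36% to 6.38%. The third chromosome 11 stretch had a median log2 ratio to FS of -0.53 in that library, against -0.13 to -0.10 in the other ES libraries. Rmrp was at 19609 CPM against 6775 to 7956 CPM, Rps3 at 4566 CPM against 1296 to 1593 CPM, Eif4a-ps4 at 2442 CPM against 1372 to 1537 CPM, and Ftl1-ps2 at 39.3 CPM against 17.5 to 20.5 CPM. Trim25 was lower there, at 68.1 CPM against 113 to 119 CPM.

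In other libraries, Pkm was at 796 CPM in ES passage 15 against 928 to 952 CPM in the other ES libraries, and Slc2a1 at 207 CPM in ES passage 20 against 131 to 141 CPM. The direct tests between cultures also count the genes whose change against ES differed: 791 between AF and AFX and 3089 between AF and FS.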

How the results depend on the processing

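No paired analysis was possible because the numbers shared between groups are passages or follow accession order, and the groups are different lines. For AF against ES, the count of called genes was 10877 by the DESeq2 Wald test and 5275 when tested against a log2 change of 1 (405 on chromosome 11). Leaving out 1 library gave 9471 to 10505 calls, 772 to 838 of them on chromosome 11, and a chromosome 11 share ratio of 1.32 to 1.36. Of 7036 pairs of a listed or named gene with an alternative, 6819 kept their side of the threshold, 152 lost the call and 65 gained it. No called value reversed, and 77 uncalled values changed sign. The counts of 31 lists stayed within 1.5 times in 546 of 558 cases.

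Against AFX, 791 calls became 1383 by DESeq2, 102 against a log2 change of 1, 2276 with only the AF and AFX libraries (57.1% higher in AF in place of 66.5%), 1227 with 1 mean per line and 407 without chromosome 11, and 351 to 924 on leaving out 1 library. Against FS, 3089 calls became 682 against a log2 change of 1 and 1799 to 3464 on leaving out 1 library, and total counts as the only scaling took the share higher in AF from 52.9% to 44.3%. The cause of these shifts was not tested. After seeing the data, the stretches were redrawn from AF against AFX or ES, which left them in place, and from genes of at least 1 CPM, which moved the median of the third from -1.15 to -1.19 (63 genes) and put Sec24a in the second.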

Other observations

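Histone genes of the Hist1 to Hist4 clusters, most of whose mRNAs end without a poly(A) tail, had median log2 fold changes of -0.91 against FS, -0.82 against AFX and -0.40 against ES. Of 68 tested, 35 were called lower in AF than in FS, where 7.84% of all genes were, 7 lower than in AFX, where 1.43% were, and 9 lower and 5 higher than in ES.

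Calls against ES were also counted by gene class, without a test between classes. Of 14408 protein-coding genes, 4641 were called higher in AF and 4027 lower. Of 165 snoRNA genes, 3 were higher and 42 lower, and of 1584 pseudogenes, 193 were higher and 519 lower. Of 486 lincRNA genes, 143 were higher and 147 lower, of 129 miRNA genes 17 and 30, of 417 antisense genes 142 and 79, of 266 processed transcripts 104 and 44, and of 748 genes of the class TEC 211 and 68. Whether the strand setting or reads shared with parent genes entered these counts was not tested.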
